A study of Mus musculus with 3 samples.

Results

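The respiratory chain of mouse colon cells was described through 59 of the 32285 genes in the count matrices. Of these, 49 subunits are encoded in the nucleus and 10 in mitochondrial DNA (symbols that begin with mt-). They were chosen by symbol, with earlier results of these data known. Together they took 18.4% of all unique molecular identifiers (UMIs, tags that count captured transcripts), of which the nuclear members took 2.50% of all UMIs. The matrices list 13 protein genes encoded in mitochondria, and the 10 members hold 95.7% of their UMIs.

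Single-cell RNA libraries made in droplets from the colon of germ-free mice, animals raised without microbes, gave 3 count matrices. BT mutant had been given to colonize the mice of one library and BT WT those of another, and the mice of the remaining library received PBS, a salt solution. The labels give neither the full name of BT, the mutation, the time after colonization, the age, sex and strain of the mice, nor the number of animals behind a library. Each group had 1 library, so no test could be run and no difference has a replicate check. Bracketed ranges are exact 95% intervals that cover counting error only.

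The respiratory chain sits in the inner mitochondrial membrane. Complexes I and II take electrons from NADH and succinate, complex III and cytochrome c pass them on, and complex IV (cytochrome c oxidase) gives them to oxygen, while complexes I, III and IV pump protons that complex V (ATP synthase) uses to make ATP. All complexes except II mix subunits from both genomes, the mitochondrial ones being core subunits in the membrane. Colonocytes, the absorptive cells of the colon surface, are known for a high mitochondrial content and for oxidizing short-chain fatty acids that gut bacteria release.

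The BT mutant, BT WT and PBS libraries held 8195, 8829 and 4425 barcodes with 54943483, 55436776 and 42003444 UMIs. Barcodes with at least 300 genes numbered 8012, 8757 and 4150, and their median share of mitochondrial UMIs was 16.3%, 15.6% and 7.72%. A limit of 25% mitochondrial UMIs left 6138, 7070 and 3198 cells, and a limit of 10% left 2897, 3061 and 2342. Between 8 and 19 barcodes were shared by any pair of libraries. Since the limit acts on the mt- members themselves, each result was read at 10%, at 25% and with no limit, and values are at 25% where none is named.

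Cells were grouped into clusters, and clusters were called "X-like" from marker genes, so class names are rebuilt and not the submitters'. With at least 50 cells in every library, 6 classes could be compared at 25%. All 20 colonocyte markers were detected in colonocyte-like cells of every library, with a summed level of 34527 CPM (UMIs per 1000000 UMIs of the class) in BT mutant, 30071 in BT WT and 46607 in PBS. Levels are not per gene length, so they are set beside each other between libraries and not between genes.

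Promoters are shown for 3 nuclear members to which the results return: Cox6a1, the complex IV member whose level stood furthest apart between libraries, Cox8a, another abundant complex IV member, and Uqcrh, the complex III member in which BT WT came nearest to PBS. Each sequence runs 5′ to 3′ on the minus strand of GRCm38.p6 (RefSeq), from 250 bases before the start of the gene to 50 bases after it. Capitals mark matches to letters bound by regulators of nuclear respiratory genes: GCGCATGCG or its reverse complement CGCATGCGC for NRF1 in Cox6a1, where both matches overlap, and ACTTCCGG, the reverse complement of CCGGAAGT, for GABP (also called NRF2) in the other 2.
Cox6a1, chr5:115348909-115349208: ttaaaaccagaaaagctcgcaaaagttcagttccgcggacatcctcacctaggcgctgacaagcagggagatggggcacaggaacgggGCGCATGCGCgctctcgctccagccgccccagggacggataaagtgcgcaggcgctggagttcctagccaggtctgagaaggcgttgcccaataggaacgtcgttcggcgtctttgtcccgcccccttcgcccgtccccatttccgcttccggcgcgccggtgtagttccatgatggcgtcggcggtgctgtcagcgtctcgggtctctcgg
Cox8a, chr19:7217567-7217866: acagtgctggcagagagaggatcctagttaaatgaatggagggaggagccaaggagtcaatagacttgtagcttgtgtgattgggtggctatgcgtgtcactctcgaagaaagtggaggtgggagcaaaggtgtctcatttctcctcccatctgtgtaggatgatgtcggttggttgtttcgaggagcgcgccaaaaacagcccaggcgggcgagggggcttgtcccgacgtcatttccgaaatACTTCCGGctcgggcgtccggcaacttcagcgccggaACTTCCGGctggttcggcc
Uqcrh, chr4:116075021-116075320: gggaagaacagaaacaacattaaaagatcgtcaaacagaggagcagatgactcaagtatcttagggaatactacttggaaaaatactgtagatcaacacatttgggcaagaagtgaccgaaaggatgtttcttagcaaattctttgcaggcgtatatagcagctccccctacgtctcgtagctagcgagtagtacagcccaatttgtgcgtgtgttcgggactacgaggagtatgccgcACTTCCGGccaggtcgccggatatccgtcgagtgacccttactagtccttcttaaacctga
The NRF1 match in Cox6a1 began 162 bases before the start, one GABP match in Cox8a 6 bases before it and one in Uqcrh 11 bases before it. RefSeq promoters were matched for 38 of the 49 nuclear members. On both strands, GCGCATGCG was in 5 of them (13.2%, against 1.95% of the genes with a promoter of this length, 27025 in all). A stricter search for both strands at once, shifted by 1 base as in Cox6a1, was the first to be made and matched 2 (5.26%, against 1.07%), and the shorter letters were taken up after that count was known. CCGGAAGT was in 3 (7.89%, against 4.31%) and AAGATGGCG, letters bound by YY1, also in 3 (7.89%, against 1.64%). Any of these letters was in 10 of the 38 (26.3%, against 7.48%). The promoters printed here are all among those 10, so they do not stand for the other members. A match is a description of these letters and not a sign of binding.

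In colonocyte-like cells the nuclear members took 3.77% of UMIs in BT mutant, 2.08% in BT WT and 4.41% in PBS, while the mt- members took 15.3%, 17.0% and 14.9%. At this limit the BT WT library thus stood lowest for the nuclear members and highest for the mt- members. The mt- part did not hold at the other limits: at 10% the mt- members took 6.99% in BT mutant, 6.85% in BT WT and 6.58% in PBS, and with no limit BT WT over PBS was 0.934 for the mt- sum. The ratio of BT WT over PBS was 0.471 [0.469 to 0.473] for the nuclear sum and 1.14 [1.13 to 1.14] for the mt- sum. For BT mutant over BT WT these ratios were 1.82 [1.81 to 1.82] and 0.900 [0.899 to 0.902], and for BT mutant over PBS 0.856 [0.853 to 0.859] and 1.02 [1.02 to 1.02]. UMIs of mt- members per UMI of nuclear members came to 4.05 in BT mutant, 8.16 in BT WT and 3.39 in PBS.

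Each of the 49 nuclear members was lower in BT WT than in PBS, and 40 of them by at least 1.5-fold. Among all genes with at least 20 UMIs the share at least 1.5-fold lower was 14.5%, and the share higher was 36.1%, against 0 nuclear members. Each of the 49 was also higher in BT mutant than in BT WT, 37 by at least 1.5-fold, where the share of all genes was 15% higher and 20.1% lower. The median log2 ratio over the nuclear members was -1.01 for BT WT over PBS (0.30 over all genes) and 0.80 for BT mutant over BT WT (-0.12 over all genes). In BT mutant over PBS, 4 were at least 1.5-fold lower and none higher (10.5% and 23.6% of all genes), with a median of -0.14 against 0.21. Among genes with at least 1000 UMIs the shares were 16.3% lower in BT WT than in PBS, 14.6% higher in BT mutant than in BT WT and 8.24% lower in BT mutant than in PBS. In the mean over clusters with at least 50 cells in both libraries, an alternative chosen after seeing the data, none of the 49 was at least 1.5-fold higher in BT mutant than in BT WT and 1 was lower. Both comparisons with PBS rest on cluster 3.0 alone in that mean. There 0 were at least 1.5-fold lower and 28 higher in BT WT than in PBS. Against PBS, 40 were higher in BT mutant. The share of all genes in that mean was not taken. These comparisons share libraries, so a low BT WT value moves 2 of them at once.

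**Figure D1:**
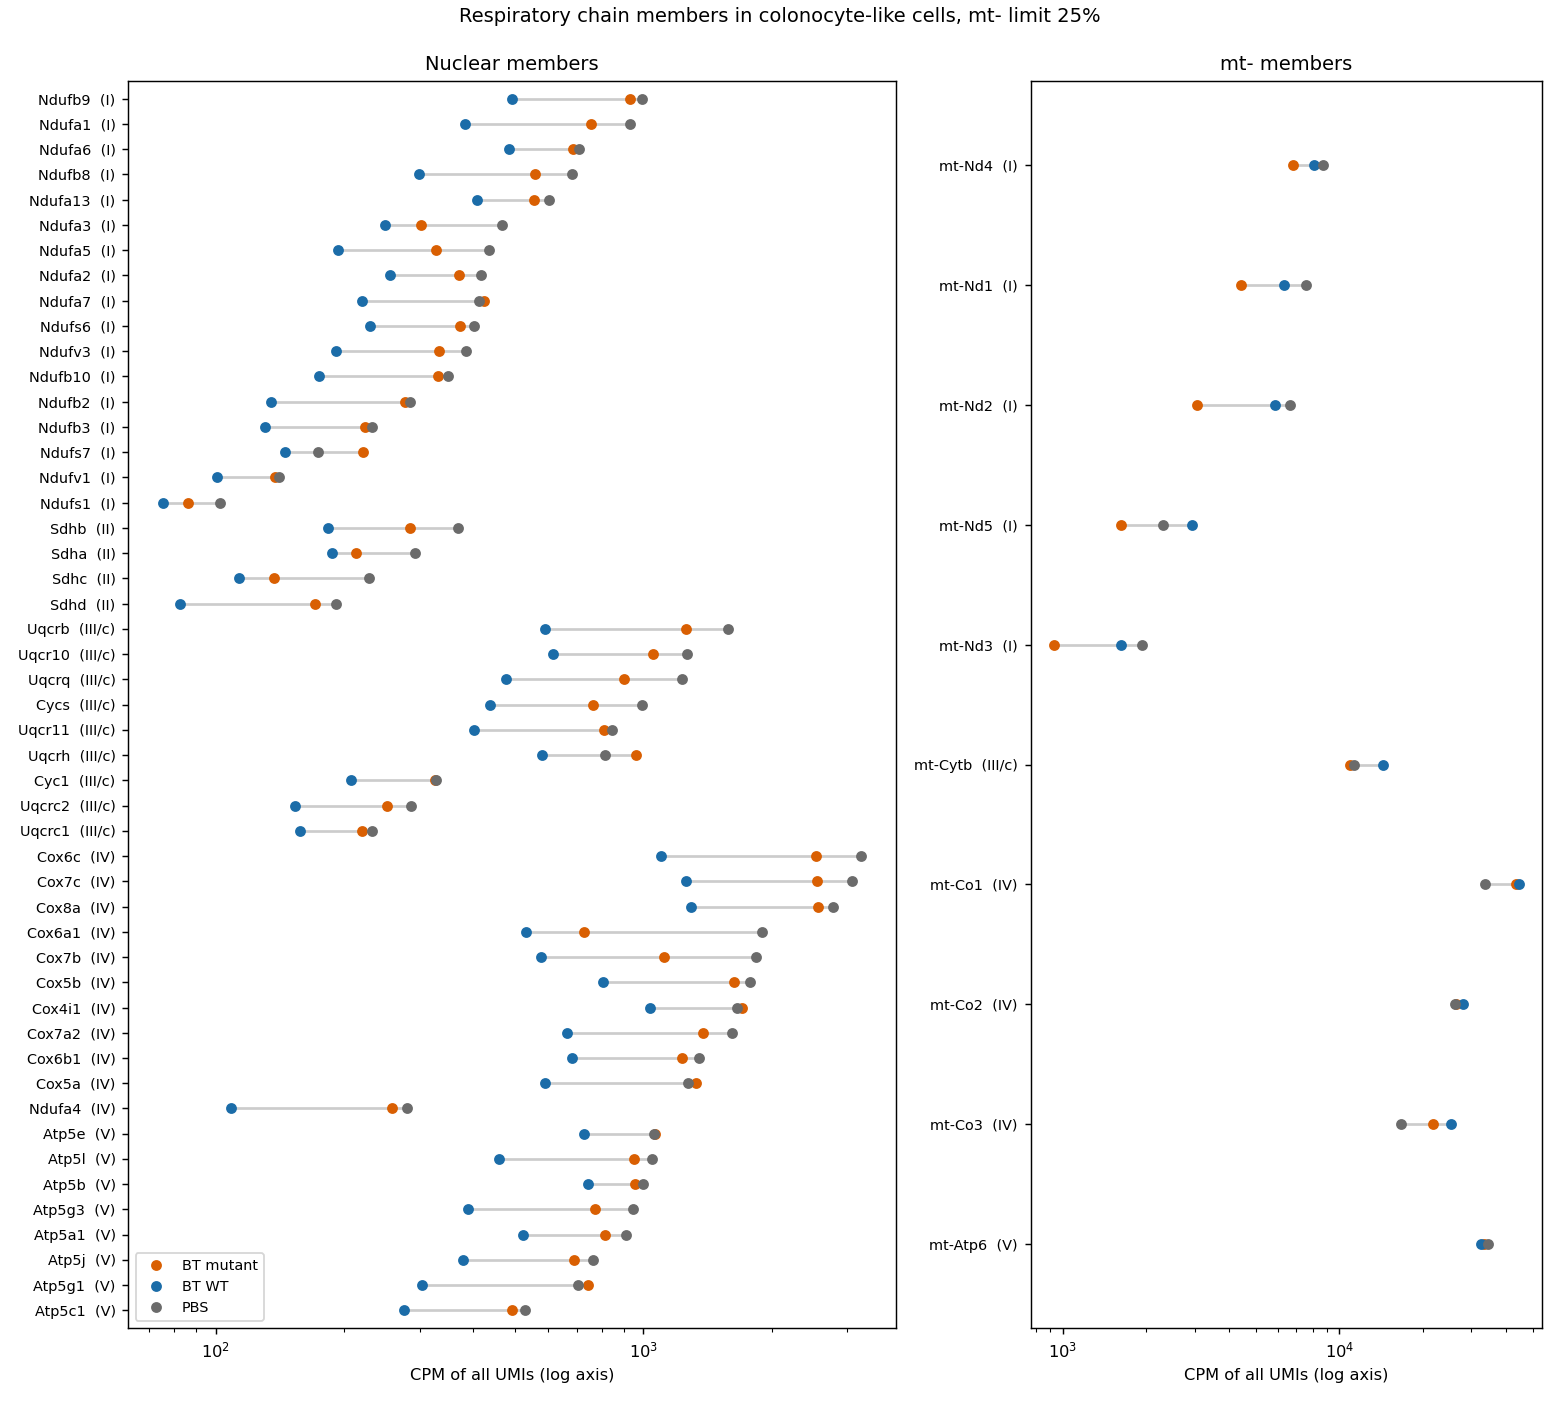
Level of each member in colonocyte-like cells as CPM on a log axis, with 1 point per library and complexes in brackets. The BT WT point is the lowest for all 49 nuclear members. Among the mt- members, the BT mutant point is the lowest for the 5 complex I members and for mt-Cytb.

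The colonocyte-like cells were not made up of the same clusters in each library. In PBS, cluster 12 (led by Gsta1, Apoc2 and Rbp2) held 65.2% of the cells and 96.1% of the nuclear-member UMIs, and it held 2 cells of BT WT and no cell of BT mutant. In BT WT, cluster 2 (led by Ifit1bl1, Slc37a2 and Atp12a) held 64.2% of the cells, and in BT mutant clusters 0 and 6 held 31.9% and 22.7%. Clusters 3.0, 3.1 and 7, with the carbonic anhydrase Car1 prominent, held 23.9% of the cells and 89.3% of the nuclear-member UMIs in BT mutant. They held 8.17% and 64.0% in BT WT, and 15.7% and 3.23% in PBS.

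Within clusters, BT mutant and BT WT differed less than they did over the class. In clusters 3.0, 3.1 and 7 together the nuclear members took 5.13% of UMIs in BT mutant, 4.44% in BT WT and 4.06% in PBS. In the other clusters they took 1.18% in BT mutant, 1.07% in BT WT and 4.42% in PBS, where 379 of the 490 cells were of cluster 12, which alone took 4.52%. The PBS value of clusters 3.0, 3.1 and 7 rests on few cells, since clusters 3.1 and 7 had 7 cells each in PBS and held 0.928% and 1.54% of the nuclear-member UMIs of the class there, against 0.763% for cluster 3.0. The BT mutant over BT WT ratio of the nuclear sum was 1.16 [1.15 to 1.16] in clusters 3.0, 3.1 and 7. It was 1.10 [1.09 to 1.11] in the other clusters, against 1.82 for the class. In the other clusters the median over single cells went the other way, at 1.08% in BT mutant and 1.12% in BT WT. In clusters 3.0, 3.1 and 7 this median was 5.71% and 5.12%, all 4 values being percents of non-mitochondrial UMIs.

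Of the single clusters, 6 had at least 50 cells in both BT mutant and BT WT. Cluster 7 stood at 49968 CPM in BT mutant and 44684 in BT WT, and cluster 3.0 at 56479 and 44983. Cluster 0 stood at 9804 and 9251 CPM, and cluster 2 at 13753 and 10864. Cluster 6 was the exception, with 15492 CPM in BT mutant and 17684 in BT WT, a ratio of 0.876 [0.853 to 0.900], while the ratios of the other 5 lay between 1.06 and 1.27.

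Among the colonocyte-like clusters, cluster 3.0 alone had at least 50 cells in all libraries. It held 150 cells in BT mutant, 66 in BT WT and 77 in PBS. There the nuclear members stood at 56479 CPM in BT mutant, 44983 in BT WT and 29180 in PBS, an order that differs from that of the class. These cells were shallow, with a median of 1267 UMIs in BT mutant, 1175.5 in BT WT and 1371 in PBS. Malat1 and Neat1 ran in the opposite order to the nuclear members there, at 0.533%, 0.791% and 1.23% of non-mitochondrial UMIs, and their part was not tested. The BT WT over PBS ratio of cluster 3.0 was 1.54 [1.47 to 1.61], against 0.471 for the class, and its BT mutant over PBS ratio 1.94 [1.87 to 2.01]. The class differences above therefore hold for class sums in which other clusters carry the UMIs of each library. The members, other mt- genes, ribosomal protein genes, Malat1 and Neat1 were left out when cells were clustered, but genes that vary with them were not, so levels between clusters are a description.

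**Figure D2:**
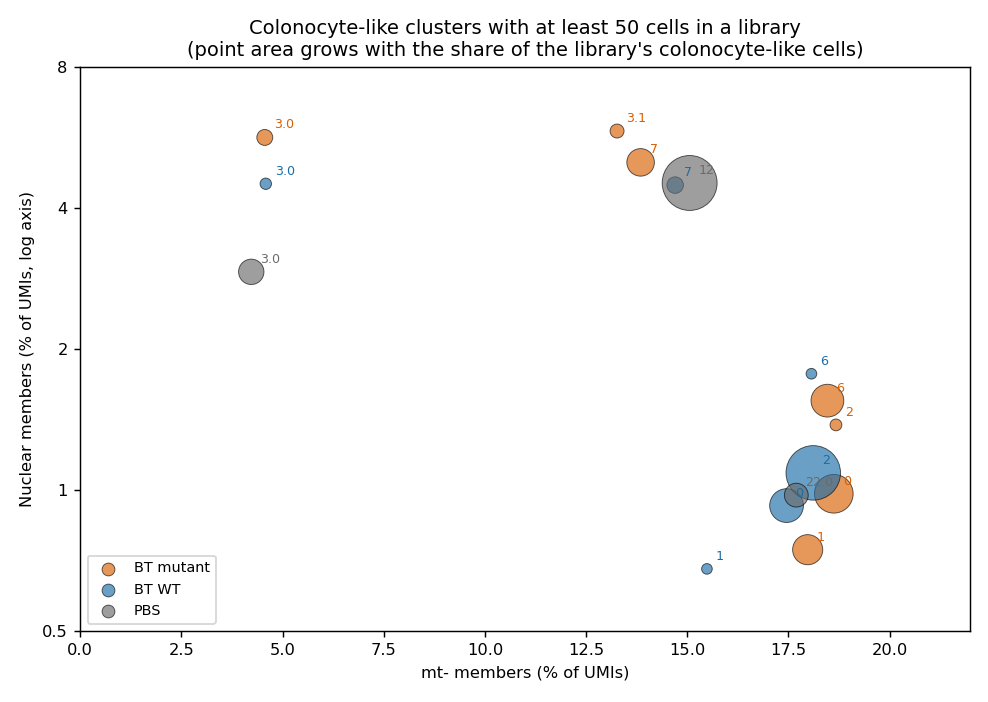
Nuclear members (log axis) against mt- members, both as a percent of UMIs, in each colonocyte-like cluster with at least 50 cells in a library. Point colour gives the library, and the clusters near 5% nuclear members hold most UMIs in BT mutant and PBS, whereas the large BT WT point is cluster 2 near 1.09%.

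Depth and nuclear RNA also differed between libraries, in orders unlike that of the nuclear members. The median UMI count of colonocyte-like cells was 3348 in BT mutant, 3955 in BT WT and 9958 in PBS. Malat1 and Neat1, long RNAs that stay in the nucleus, took 4.62% of non-mitochondrial UMIs in BT mutant, 8.60% in BT WT and 7.47% in PBS. Across single cells the rank correlation of the nuclear-member share with the Malat1 and Neat1 share was -0.72 in BT mutant (3189 cells), -0.44 in BT WT (3317 cells) and -0.51 in PBS (581 cells), both shares being taken from the same UMIs. In clusters 3.0, 3.1 and 7 these RNAs took 1.89%, 2.82% and 3.78%, and in the other clusters 10.2%, 11.2% and 7.61%. Summed goblet markers in these cells stood at 362 CPM in BT mutant, 2109 in BT WT and 1959.5 in PBS, and erythrocyte markers at 136, 137 and 2.72 CPM. The part of all these in the result was not tested. Fewer cells of a kind and less RNA per cell cannot be told apart in class sums.

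Levels of complex I, which takes electrons from NADH, are given by genome. The 17 nuclear members summed to 6888 CPM in BT mutant, 4166.5 in BT WT and 7717 in PBS. Of these, 12 were at least 1.5-fold lower in BT WT than in PBS, and 11 at least 1.5-fold higher in BT mutant than in BT WT. The 5 mt- members summed to 16834 CPM in BT mutant, 24824 in BT WT and 27177 in PBS, so that here BT mutant was lowest.

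Ndufb9, an accessory subunit of the membrane arm and the nuclear complex I member with the most UMIs, stood at 929 CPM in BT mutant, 494 in BT WT and 994 in PBS. Ndufa1, another accessory subunit, stood at 754, 383 and 933 CPM, with a BT WT over PBS ratio of 0.410 [0.398 to 0.423], the lowest of the nuclear complex I members. Ndufs7, a core iron-sulfur subunit, had the highest such ratio, 0.838 [0.789 to 0.889], at 221 CPM in BT mutant, 145 in BT WT and 173 in PBS. Ndufs7 was thus higher in BT mutant than in both other libraries. For BT mutant over BT WT the extremes were Ndufb2, an accessory subunit, at 2.06 [1.97 to 2.16], and Ndufs1, a core subunit of the NADH-oxidizing arm, at 1.14 [1.07 to 1.22].

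Among the mt- members of complex I, all of them core membrane subunits, mt-Nd2 stood at 3062 CPM in BT mutant, 5839 in BT WT and 6642 in PBS. Its ratio was 0.524 [0.520 to 0.529] for BT mutant over BT WT and 0.461 [0.456 to 0.466] for BT mutant over PBS. mt-Nd3 stood at 928, 1623 and 1935 CPM, and mt-Nd5 at 1629, 2943 and 2305. These 3 were the mt- members at least 1.5-fold lower in BT mutant than in BT WT. mt-Nd4 had the most UMIs and varied least, at 6823 CPM in BT mutant, 8088.5 in BT WT and 8747 in PBS.

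Complex II, succinate dehydrogenase, is also an enzyme of the tricarboxylic acid cycle and has no subunit from mitochondrial DNA. Its 4 members summed to 806 CPM in BT mutant, 566 in BT WT and 1080.0 in PBS, and all 4 were at least 1.5-fold lower in BT WT than in PBS. Sdhb, the iron-sulfur subunit, stood at 285 CPM in BT mutant, 183 in BT WT and 368 in PBS. Sdhd, a membrane anchor, stood at 171, 82.4 and 191 CPM, with a BT mutant over BT WT ratio of 2.07 [1.95 to 2.19]. Sdha, the flavoprotein with the catalytic site, was closer between the colonized groups, at 213 CPM in BT mutant and 187 in BT WT, against 293 in PBS. Sdhc, the other anchor, stood at 137 CPM in BT mutant and 113 in BT WT, against 228 in PBS.

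The 9 nuclear members of complex III and cytochrome c summed to 6542 CPM in BT mutant, 3616.5 in BT WT and 7568 in PBS. Of these, 7 were at least 1.5-fold lower in BT WT than in PBS and 8 at least 1.5-fold higher in BT mutant than in BT WT. Uqcrb, a small accessory subunit, stood at 1255 CPM in BT mutant, 589 in BT WT and 1577 in PBS, with ratios of 0.373 [0.364 to 0.382] for BT WT over PBS and 2.13 [2.09 to 2.18] for BT mutant over BT WT. Uqcrh, the hinge protein whose promoter is printed above, stood at 963, 579 and 812 CPM, so that BT mutant exceeded PBS as well, with a ratio of 1.19 [1.16 to 1.21].

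Uqcrc1, a core protein of the complex, had the lowest BT mutant over BT WT ratio, 1.39 [1.33 to 1.46]. Cycs, the soluble carrier cytochrome c, stood at 765 CPM in BT mutant, 439 in BT WT and 990.2 in PBS. From the mitochondrial genome, mt-Cytb, the cytochrome b core of complex III, stood at 10900 CPM in BT mutant, 14421 in BT WT and 11322 in PBS. It was therefore highest in the library in which the nuclear members were lowest.

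The 11 nuclear members of complex IV showed the lowest summed BT WT over PBS ratio of any complex, 0.416, at 17020 CPM in BT mutant, 8636 in BT WT and 20766 in PBS. All 11 were at least 1.5-fold lower in BT WT than in PBS, and 10 at least 1.5-fold higher in BT mutant than in BT WT. Cox7c, a small subunit, stood at 2552 CPM in BT mutant, 1257 in BT WT and 3081 in PBS. Cox8a, whose promoter is printed above, stood at 2561, 1289 and 2778 CPM. Cox4i1, the common isoform of a large nuclear subunit, had the highest BT WT over PBS ratio, 0.624 [0.612 to 0.637], and stood at 1703 CPM in BT mutant, 1034 in BT WT and 1657 in PBS. Ndufa4, first described in complex I and now placed in complex IV, had the highest BT mutant over BT WT ratio, 2.38 [2.26 to 2.50].

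Cox6a1, on chromosome 5 at 115345642 to 115348981 of GRCm38, differed from the rest of its complex. It stood at 727 CPM in BT mutant and 533 in BT WT, against 1889 in PBS, so that both colonized libraries were low. It had the lowest ratio of all nuclear members for BT WT over PBS, 0.282 [0.276 to 0.289], and for BT mutant over PBS, 0.385 [0.377 to 0.393]. Cox6a1 encodes the widely used isoform of a subunit whose other isoform, Cox6a2, belongs to heart and skeletal muscle and had 0, 1 and 0 UMIs in colonocyte-like cells of BT mutant, BT WT and PBS. The 3 other members at least 1.5-fold lower in BT mutant than in PBS were Cox7b, a small complex IV subunit at 1117 CPM in BT mutant against 1834 in PBS, Sdhc, and Ndufa3, an accessory complex I subunit at 302 against 466 CPM.

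The mt- members of complex IV form its catalytic core. mt-Co1, which holds the site of oxygen reduction, stood at 43546 CPM in BT mutant and 44716 in BT WT, against 33643 in PBS. mt-Co3 stood at 21874 CPM in BT mutant and 25370 in BT WT, against 16696 in PBS. With a BT WT over PBS ratio of 1.52 [1.51 to 1.53] it was the 1 mt- member at least 1.5-fold higher there. mt-Co2, which receives electrons from cytochrome c, was nearly level at 26364, 27901 and 26160 CPM.

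The 8 nuclear members of complex V summed to 6478 CPM in BT mutant, 3799 in BT WT and 6958 in PBS, with 6 at least 1.5-fold lower in BT WT than in PBS and 6 at least 1.5-fold higher in BT mutant than in BT WT. Atp5e, the epsilon subunit of the catalytic head, stood at 1065 CPM in BT mutant, 725 in BT WT and 1059 in PBS. Atp5b, the catalytic beta subunit, varied least, with a BT WT over PBS ratio of 0.745 [0.726 to 0.764] and a BT mutant over BT WT ratio of 1.29 [1.26 to 1.32]. Atp5g1 and Atp5g3 each encode a precursor of subunit c, of which the rotor ring is built. Atp5g1 stood at 741 CPM in BT mutant, 304 in BT WT and 703 in PBS, with the highest BT mutant over BT WT ratio of all members, 2.44 [2.37 to 2.51], and Atp5g3 at 771, 390 and 947 CPM. mt-Atp6, which forms the proton path beside that ring, was nearly level at 33265, 32450 and 34406 CPM.

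Many of these short genes have processed copies elsewhere in the genome, and nuclear copies of mitochondrial DNA exist. How reads that match several places were counted is not given in the sources used here, so single levels carry that uncertainty.

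The limit on mitochondrial UMIs changed the class values. At 10%, 459 colonocyte-like cells remained in BT mutant, 319 in BT WT and 198 in PBS, and the nuclear members stood at 57105 CPM in BT mutant, 34817 in BT WT and 41162 in PBS. The BT WT over PBS ratio was then 0.846 [0.833 to 0.859], with 3 nuclear members at least 1.5-fold lower (11.3% of all genes) and 11 of the 49 above 1. BT mutant over BT WT changed less, to 1.64 [1.62 to 1.66], with 33 members at least 1.5-fold higher (16.8% of all genes). BT mutant over PBS turned to 1.39 [1.37 to 1.40], with 16 members at least 1.5-fold higher (21.4% of all genes) and 1 lower (16.5%). With no limit the ratios were 0.552 for BT WT over PBS, 1.77 for BT mutant over BT WT and 0.975 for BT mutant over PBS.

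**Figure D3:**
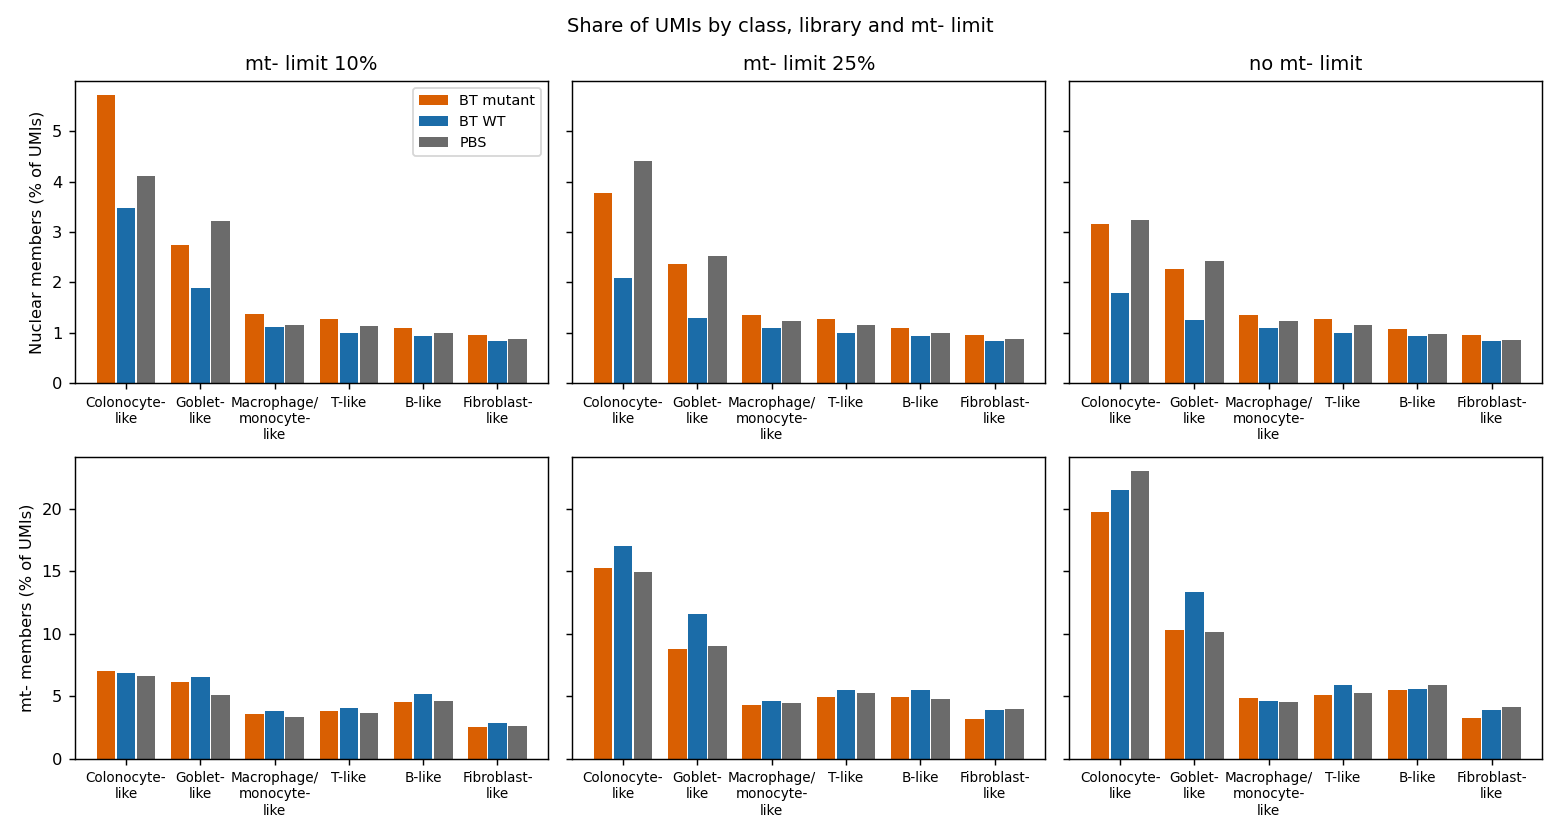
Nuclear members (upper plots) and mt- members (lower plots) as a percent of the summed UMIs of each class in the 3 libraries, at mt- limits of 10%, 25% and none. BT WT has the lowest nuclear bar in every class at 10% and 25%, and the mt- bars of colonocyte-like cells follow the limit.

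Within bands of mitochondrial share, the nuclear members were read as a percent of non-mitochondrial UMIs, a scale on which mt- UMIs have no part. In the band from 5% to 10% they took 6.30% in BT mutant, 3.76% in BT WT and 4.95% in PBS. From 10% to 15% they took 5.65%, 3.37% and 6.21%, and from 20% to 25% they took 2.45%, 1.81% and 3.46%. Read as sums over cells, BT WT was below BT mutant in all 7 bands, in the last by less than counting error. It was below PBS in all except the band under 5%, where it had 3.72% against 3.17% in PBS and 5.53% in BT mutant. Medians over single cells were higher in BT WT from 20% to 25%, at 1.25% against 1.13% in BT mutant. From 25% to 50% they were 1.385% in BT WT and 1.24% in BT mutant. In the bands up to 20% BT mutant had the higher median, and above 50% both stood at 1.57%.

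From the band of 10% to 15% upward, the nuclear-member share was lower in each further band in all 3 libraries. Above 50% the 3 libraries were close, with 1.60% in BT mutant, 1.57% in BT WT and 1.80% in PBS. Malat1 and Neat1 took 1.97% in BT mutant, 5.72% in BT WT and 7.96% in PBS in the band under 5%, and 8.89%, 11.2% and 15.1% in the band from 25% to 50%, where each library was at its highest. Across single cells within 25%, the mitochondrial share and the nuclear-member share had a rank correlation of -0.33 in BT mutant, 0.08 in BT WT and -0.01 in PBS.

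**Figure D4:**
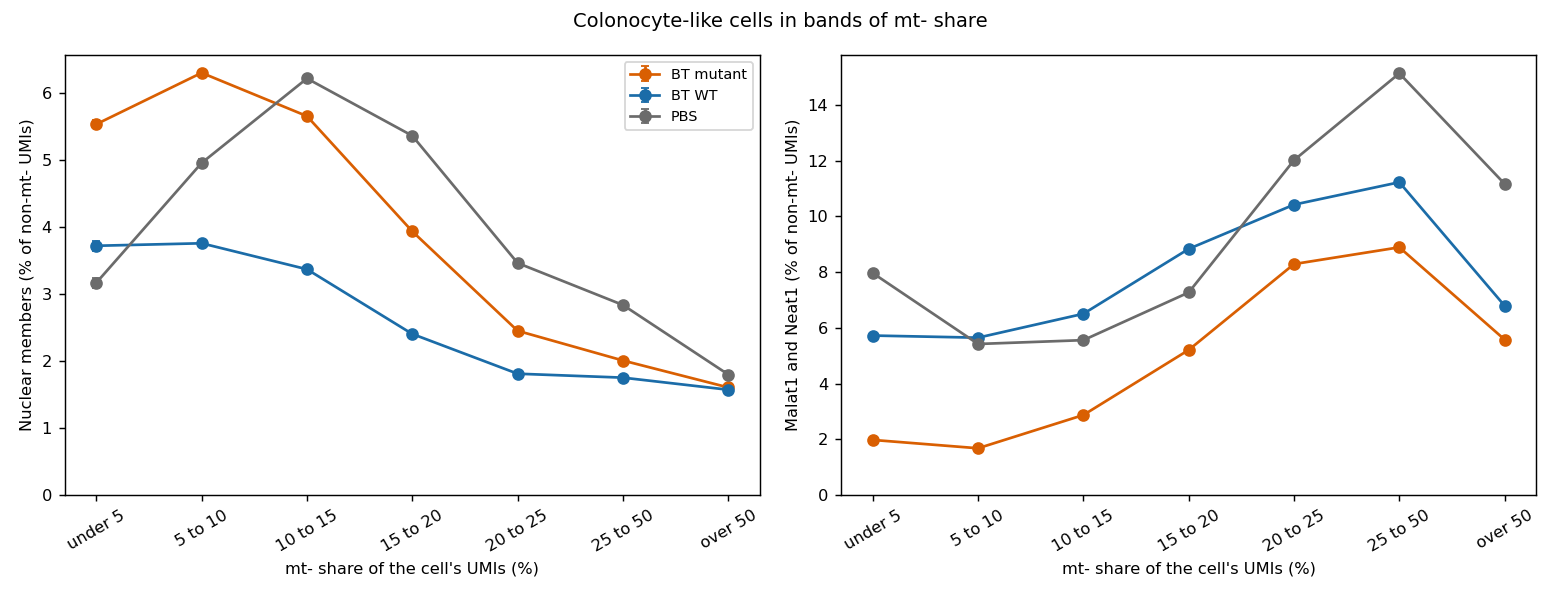
Nuclear members (left) and Malat1 with Neat1 (right), as a percent of non-mitochondrial UMIs, in colonocyte-like cells grouped by the mitochondrial share of the cell, with 1 line per library and bars for exact 95% intervals on the left. Values are sums over the cells of a band. On the left BT WT stays below BT mutant in every band, and the lines come together above 50%.

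Goblet-like cells, which secrete mucus, had the same order of nuclear sums as colonocyte-like cells, while their mt- sum was lowest in BT mutant. Markers of other epithelial cells differed between libraries in this class, and their part was not tested. Enteroendocrine (hormone cell) markers summed to 3961 CPM in BT mutant, 120 in BT WT and 817 in PBS, and colonocyte markers to 4496, 11622 and 4663. Cluster 5, described below, scored 3.46 for goblet and 2.10 for enteroendocrine markers. The nuclear members stood at 23746 CPM in BT mutant, 12873 in BT WT and 25174 in PBS, and the mt- members took 8.73%, 11.5% and 8.97% of UMIs. The nuclear BT WT over PBS ratio was 0.511 [0.507 to 0.516], with 45 of 49 at least 1.5-fold lower (25.2% of all genes). For BT mutant over BT WT it was 1.84 [1.82 to 1.87], with 37 at least 1.5-fold higher (26.3% of all genes). Here too the clusters differed: cluster 15 held 60.3% of the cells in BT mutant, 88.2% in BT WT and 54.5% in PBS, and had the lower nuclear share, 0.736%, 0.721% and 1.08%. Cluster 5 took 2.79% in BT mutant, 2.40% in BT WT and 3.03% in PBS, so that within it BT WT was 0.793 [0.782 to 0.804] of PBS. The remaining goblet-like cluster, with 4 cells in BT mutant, 9 in BT WT and 9 in PBS, held 25.9%, 20.8% and 32.6% of the nuclear-member UMIs of the class.

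In the classes outside the epithelium the differences were smaller and the order was the same for BT WT. The nuclear members of macrophage and monocyte-like cells stood at 13599 CPM in BT mutant, 10937 in BT WT and 12415 in PBS. T-like cells stood at 12752, 9950.3 and 11484 CPM, B-like cells at 10921, 9313 and 9955 CPM, and fibroblast-like cells at 9550.1, 8383 and 8689 CPM. In class sums BT mutant was highest and BT WT lowest in all 4 classes. The BT mutant over BT WT ratio was 1.28 [1.25 to 1.31] in T-like, 1.24 [1.22 to 1.27] in macrophage and monocyte-like, 1.17 [1.16 to 1.19] in B-like and 1.14 [1.12 to 1.16] in fibroblast-like cells. The macrophage and monocyte-like class was mixed, and differently so between libraries. Its plasma cell markers summed to 2684 CPM in BT mutant, 6514 in BT WT and 146.5 in PBS. Mast cell markers summed to 42.5, 18.1 and 2119 CPM there, and macrophage and monocyte markers to 12006, 10420 and 17241. The part of this mixture in the nuclear-member levels was not tested.

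The clusters of B-like and T-like cells also differed between libraries. Cluster 8 held 87.1% of B-like cells in BT mutant, 52.1% in BT WT and 16.4% in PBS, and cluster 14 held 52.1% of T-like cells in BT mutant, 31.9% in BT WT and 34.2% in PBS. Within the T-like cluster 14 the nuclear members stood at 14180 CPM in BT mutant, 11466 in BT WT and 14767 in PBS, and within the B-like cluster 10.0 at 10158, 9943 and 12797 CPM. In these clusters BT mutant was below PBS, with ratios of 0.960 [0.929 to 0.993] and 0.794 [0.735 to 0.857], and BT WT was still lowest. The B-like cluster 9 was level between BT mutant and PBS, with a ratio of 1.01 [0.963 to 1.06].

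Colonocyte markers in these classes were far below the level in colonocyte-like cells, and were lowest in BT WT in 3 of the 4. Their sum stood at 2979 CPM in BT mutant, 2404 in BT WT and 3978 in PBS in T-like cells, at 1556, 1426.5 and 2590.1 CPM in B-like cells, and at 2651 CPM, 2292.5 CPM and 4663 CPM in macrophage and monocyte-like cells. The fibroblast-like sums, 2182 CPM in BT mutant, 2758 in BT WT and 2420 in PBS, were the exception. Between 18 and 20 of the 20 markers were detected in each library. Their part in the nuclear-member levels was not tested.

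Few single members passed 1.5-fold outside the epithelium. For BT mutant over BT WT, 5 of 49 nuclear members were at least 1.5-fold higher in T-like cells (14.9% of all genes), 6 in macrophage and monocyte-like cells (15%), 4 in B-like cells (9.45%) and none in fibroblast-like cells (8.94%). These shares lie near or below those of all genes. The number of members above 1, at any size, was 43, 44, 41 and 41 of 49, and the share of all genes above 1 was not counted. In the same order of classes, the median log2 ratio over all genes was 0.085, 0.083, 0.015 and -0.0087. Over genes with at least 1000 UMIs it was -0.048, 0.10, -0.0058 and 0.023. For BT WT over PBS, 3 members were at least 1.5-fold lower in T-like cells (13.2%), 3 in macrophage and monocyte-like cells (17.9%), 1 in B-like cells (13.0%) and none in fibroblast-like cells (11.3%).

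Stem and transit-amplifying-like cells, which divide in the crypts, had at least 50 cells in each library only with no limit. There the nuclear members stood at 25131 CPM in BT mutant, 26053 in BT WT and 24306 in PBS, an order unlike that of the other epithelial classes.

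The complex I part of the mt- sum had the same order of libraries in each class. mt-Nd1 to mt-Nd5 together took 11.02% [10.99 to 11.05] of the UMIs of mt- members in colonocyte-like cells of BT mutant, 14.6% [14.6 to 14.7] of BT WT and 18.2% [18.1 to 18.3] of PBS. In T-like cells they took 14.4%, 18.5% and 21.9%, in B-like cells 16.6%, 19.7% and 22.4%, and in macrophage and monocyte-like cells 15.6%, 19.2% and 20.6%. Goblet-like cells had 16.1%, 17.1% and 21.1%, and fibroblast-like cells 16.2%, 19.5% and 21.6%. BT mutant was lowest and PBS highest in all 6 classes, at 10%, at 25% and with no limit. The classes of a library share its preparation, so they are not independent readings.

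**Figure D5:**
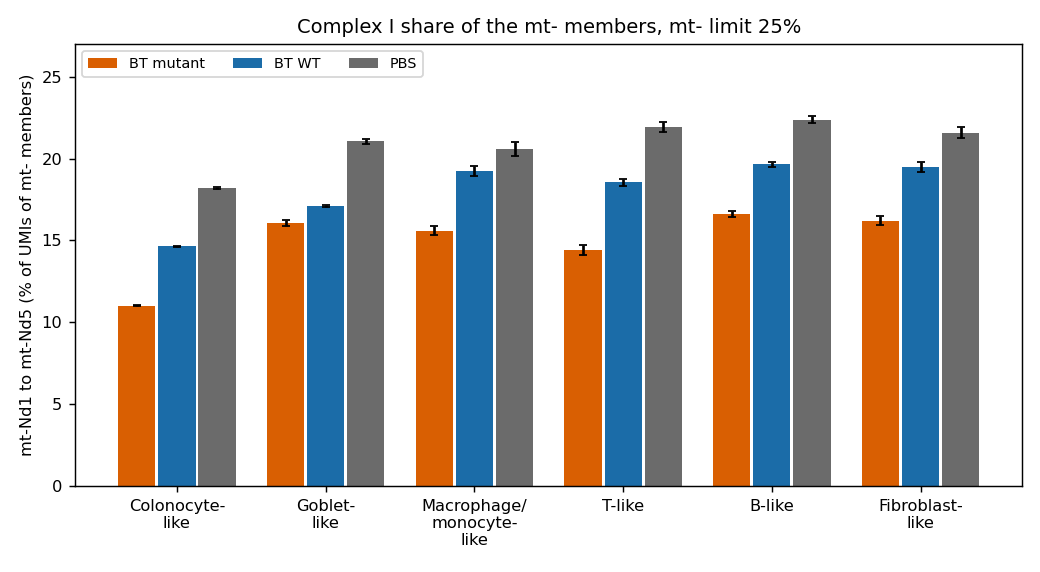
Share of mt-Nd1 to mt-Nd5 in the UMIs of the 10 mt- members (percent) by class and library at an mt- limit of 25%, with exact 95% intervals. In each class the bar of BT mutant is the lowest and that of PBS the highest, from 11.02% in colonocyte-like cells of BT mutant to 22.4% in B-like cells of PBS.

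Single mt- genes followed this in different degrees, and some complex I genes went against it in some classes. The share of mt-Nd4 in the mt- sum was 0.937 to 1.13 times as large in BT mutant as in BT WT, lower in 4 of the 6 classes. That of mt-Nd5 was 1.12 times as large in BT WT as in PBS in colonocyte-like cells, and lower in the 5 other classes. The share of mt-Nd2 in the mt- sum was 0.582 to 0.816 times as large in BT mutant as in BT WT over the 6 classes, and 0.451 to 0.706 times as large in BT mutant as in PBS. mt-Nd3 stood at 0.469 to 0.581 of PBS in BT mutant. mt-Co1 was higher in BT mutant than in PBS in each class, by 1.17 to 1.27 times, and mt-Co3 was higher in BT WT than in PBS in each class, by 1.14 to 1.34 times. mt-Atp6 took a larger share in BT mutant than in BT WT in each class, by 1.05 to 1.16 times.

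Among the nuclear members, Cox6a1 had a like pattern across classes. Its share of the nuclear sum ran from 1.20% to 1.93% over the 6 classes in BT mutant, from 1.70% to 2.57% in BT WT and from 2.24% to 4.28% in PBS. The share was lower in BT mutant than in BT WT and lower in BT WT than in PBS in each class. Its level in T-like cells was 153 CPM in BT mutant, 169 in BT WT and 274 in PBS, and in fibroblast-like cells 143.5, 155 and 196 CPM. Cox6c, also of complex IV, took a lower share in BT WT than in PBS in all 6 classes, and Cox7b took a lower share in BT mutant than in PBS in all 6. One direction in all 6 classes was not particular to these genes. With no limit, Ndufa1 also took a lower share in BT WT than in PBS in all 6, while Ndufa2, Ndufa13 and Ndufs6 took a higher one. Ndufa3, Sdha and Sdhb took a lower share in BT mutant than in PBS in all 6. The number of such members is not given.

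Other mitochondrial genes of colonocyte-like cells were read from lists of the same pathway. Of 33 further respiratory subunits, 26 were at least 1.5-fold lower and 1 higher in BT WT than in PBS, and 21 were at least 1.5-fold higher and 1 lower in BT mutant than in BT WT. mt-Atp8, a mitochondrially encoded complex V subunit and the most abundant of these, stood at 2207 CPM in BT mutant and 3171 in BT WT, against 6108 in PBS. Of 14 tricarboxylic acid cycle enzymes 10 were at least 1.5-fold lower in BT WT than in PBS, and of 20 carriers, pores and import proteins also 10. The share of all genes lower by that much was 14.5%. Among the carriers, Slc25a5, an ATP and ADP exchanger, stood at 1598 CPM in BT mutant, 892 in BT WT and 2316 in PBS.

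For BT WT over PBS, further lists stood nearer to the share of all genes (14.5% lower) than the subunits did. Of 47 assembly factors 12 were at least 1.5-fold lower in BT WT than in PBS, of 78 mitochondrial ribosomal proteins 17, of 79 cytosolic ribosomal proteins 3 and of 13 glycolysis genes 5. Of 22 genes of mitochondrial gene expression, 2 were at least 1.5-fold lower and 5 higher. Pgk1, a glycolytic kinase, had 202 CPM in BT WT and 640 in PBS. In BT mutant over BT WT, 64 of the 79 cytosolic ribosomal proteins and 38 of the 78 mitochondrial ones were at least 1.5-fold higher, so that a higher level in BT mutant was not limited to the respiratory chain. Ppargc1a, a coactivator known to raise mitochondrial content, stood at 106.5 CPM in BT mutant, 177 in BT WT and 84.4 in PBS. Of 10 such regulators, 2 were at least 1.5-fold higher and 1 lower in BT WT than in PBS. Among all genes 36.1% were higher and 14.5% lower by that much, so a rise like that of Ppargc1a was common.

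Transcript length moved with the ratios of genes at large. The main transcripts of the 49 nuclear members measured 419 to 4715 bases with a median of 763, against a median of 2586 over all genes (GENCODE vM21). Across 3549 other genes with at least 1000 UMIs in colonocyte-like cells, length and the BT WT over PBS ratio had a rank correlation of 0.50, and the median ratio was 0.655 for the 108 genes of up to 700 bases and 1.14 for longer ones. The nuclear members had median ratios of 0.470 for the 20 of up to 700 bases and 0.498 for the 29 longer ones. For BT mutant over BT WT, other genes of up to 700 bases had a median ratio of 1.62 and longer ones 0.933, while the members had 1.90 and 1.71. The part of length in the members' ratios was not tested.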

How the data were processed

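Droplet libraries (10x Genomics 3′ kit, version 3) from the colon of 1 group of mice each were deposited as raw UMI counts per gene and barcode, made by the authors with Cell Ranger 5.0.0 (per the file headers) on the mm10 build with STAR, names taken from the submitters' processing notes. The deposited matrices list 32285 genes and hold called barcodes, and totals per library stand in the report. Barcodes with at least 300 genes were scaled to 10000 UMIs and clustered with scanpy 1.11.5 (2000 variable genes, 30 principal components, 15 neighbours, Leiden resolution 1.0, ambiguous clusters divided once at 0.5). Classes were named from fixed markers (mean log2 excess of at least 1.5, with at least 3 markers detected), and clusters whose leading genes went against the name stayed unnamed. Doublets were kept, and removing barcodes at 0.8% per 1000 barcodes was an alternative.

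UMIs were summed per class and library in Python 3.11.15 (numpy 2.4.6, scipy 1.17.1, pandas 2.3.3) and given per total UMIs (CPM). Ratios of sums carry exact conditional binomial 95% intervals. The comparisons use genes with at least 20 UMIs in both sums together, a threshold of 1.5-fold and classes with at least 50 cells in each library. With 1 library per group no test was run. The ratio calculation was checked on simulated counts. Figures were drawn with matplotlib 3.10.9.

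The members and lists were chosen with earlier results of these data known. Named within each complex and genome were the member with the most UMIs in colonocyte-like cells and those with the highest and lowest BT WT over PBS and BT mutant over BT WT ratios, and from other lists the most abundant member and the one with the largest ratio, a selection of which is printed. Cox6c, Cox7b, Cox8a, Cycs and the members lower in BT mutant than in PBS were named after their values were seen.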

Additional observations from a re-analysis of the deposited data

Results flagged for a closer look

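Between BT mutant and PBS, several classes moved in the direction opposite to colonocyte-like cells, which stood at a log2 ratio of -0.22 for the nuclear sum and 0.032 for the mt- sum. With 1 library per group, none of these differences between classes was tested.

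The nuclear members had a log2 ratio of BT mutant over PBS of 0.13 in B-like cells, 0.14 in fibroblast-like cells, 0.13 in macrophage and monocyte-like cells and 0.15 in T-like cells, all above 0 where colonocyte-like cells were below it. The colonocyte-like value also turned to 0.47 at an mt- limit of 10%. Within the T-like cluster 14 and the B-like cluster 10.0 the ratios of BT mutant over PBS were 0.960 and 0.794, opposite to their class sums.

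The mt- members had a log2 ratio of BT mutant over PBS of -0.32 in fibroblast-like cells, -0.04 in goblet-like cells, -0.07 in macrophage and monocyte-like cells and -0.09 in T-like cells, all below 0 where colonocyte-like cells were above it. The mt- limit acts on these genes themselves, and the directions in goblet-like, macrophage and monocyte-like and T-like cells turned at 10%. With no limit the colonocyte-like value was itself below 0, at -0.22, while goblet-like cells stood at 0.019 and macrophage and monocyte-like cells at 0.089.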

How the results depend on the processing

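Values are log2 ratios in colonocyte-like cells, in the order BT WT over PBS, then BT mutant over each of BT WT and PBS. The nuclear sum stood at -1.09, 0.86 and -0.22 and the mt- sum at 0.18, -0.15 and 0.032. The cause of each shift below was not tested.

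An mt- limit of 10% gave -0.24, 0.71 and 0.47 for the nuclear sum and 0.057, 0.031 and 0.087 for the mt- sum. No mt- limit gave -0.86, 0.82 and -0.037, and -0.10, -0.12 and -0.22. Median-ratio scaling, which moves all genes by 0.25, -0.13 and 0.18 against the total, gave -1.33, 0.99 and -0.40, and -0.065, -0.019 and -0.15. On non-mitochondrial UMIs the nuclear sum was -1.06 and 0.83 in the comparisons with BT WT, and the mt- sum 0.21 and -0.18. Weighing each cell the same gave -1.26, 0.65 and -0.61, and 0.39, -0.039 and 0.35. Thinning cells to 1000 UMIs gave -1.32, 0.64 and -0.69, and 0.32, -0.022 and 0.30.

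A minimum of 1000 genes gave 0.92 and -0.16 for the nuclear sum against BT WT and PBS in BT mutant, and 0.18, -0.17 and 0.0094 for the mt- sum. Clustering only barcodes within 25% gave 0.73 and -0.35 for the same nuclear sums, and 0.18, -0.10 and 0.076. Removing doublets gave -1.08, 0.84 and -0.24, and 0.18, -0.14 and 0.041.

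The following alternatives were chosen after seeing the data. Adding the unnamed subclusters of cluster 22 gave -1.06 for the nuclear sum of BT WT over PBS and -0.20 for BT mutant over PBS, with mt- sums of 0.21 and 0.061. The mean over clusters held by both libraries gave 0.62, 0.14 and 0.95 for the nuclear sum and 0.12, 0.048 and 0.11 for the mt- sum, where both comparisons with PBS rest on cluster 3.0 alone.

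Of the 49 nuclear members, those at least 1.5-fold lower in BT WT than in PBS numbered 40, but 3 at 10%. They numbered 0 in the mean over clusters, here cluster 3.0 alone, where 28 were higher. For the counts in this paragraph, the share of all genes was taken only as reported and at 10%, and is given above. It was not taken for the other settings, the mean over clusters included. Whether genes at large shifted likewise under those settings is therefore not known, and their counts describe the members only. Those higher in BT mutant than in BT WT numbered 37, but 25 with cells weighed the same, 25 with thinned cells and 0 in the mean over clusters, where 1 was lower, against 0 lower in the class sums. Those lower in BT mutant than in PBS numbered 4, but 1 at 10%, 1 with no limit, 7 with median-ratio scaling, 23 with cells weighed the same, 29 with thinned cells, 7 with barcodes within 25% clustered and 0 in the mean over clusters, where 40 were higher.

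In the other classes 90 values were recomputed: 48 stayed within the counting interval, 33 moved outside it in the same direction and 9 turned. These 9 were mt- sums. With no limit they were -0.083 for B-like cells in BT WT over PBS, 0.079 for macrophage and monocyte-like cells in BT mutant over BT WT, and -0.11, 0.019 and 0.089 for B-like, goblet-like and macrophage and monocyte-like cells in BT mutant over PBS. At 10% they were -0.025, 0.26, 0.11 and 0.07 for B-like, goblet-like, macrophage and monocyte-like and T-like cells in BT mutant over PBS.

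No paired analysis was possible because each group had 1 library. For the same reason no library was left out, and group and library cannot be told apart. Intervals cover counting error only. Among the colonocyte-like clusters, cluster 3.0 alone gave a comparison of all libraries within a cluster.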

Other observations

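Isoforms of the respiratory chain known from muscle, fat or testis were near 0 in colonocyte-like cells, with one exception. Cox7a1, the heart and muscle isoform of a small complex IV subunit, stood at 127 CPM in BT mutant and 114 in BT WT, against 214 in PBS. Cox4i2 and Cox6a2 each had 1 UMI in BT WT and 0 in the other libraries, Cox8b had 2 UMIs in PBS and 0 elsewhere, and Ucp1, the uncoupling protein of brown fat, had 2 UMIs in BT mutant and 0 elsewhere.

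Several clusters that could not be named took a high share of nuclear members. Cluster 3.4 of BT mutant (124 cells) took 5.13% of UMIs for nuclear members and 9.37% for mt- members. Cluster 3.5 took 4.56% and 11.6% in BT WT (62 cells) and 5.38% and 12.7% in PBS (50 cells), an order of nuclear members between BT WT and PBS like that of the colonocyte-like and goblet-like sums. The largest unnamed subcluster of cluster 22 in PBS held 431 cells with a median of 790 UMIs, and took 2.17% for nuclear members.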
